A study of Mus musculus with 6 samples.

Results

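The genes described here code for 28 collagen chains, 8 laminin chains and 5 further proteins of the basement membrane and the matrix around it, namely the nidogens, perlecan, agrin and fibronectin. They were taken by gene symbol from a list whose rule used no expression value, but which was chosen with earlier results of these data known. All 41 were found among the 32285 genes counted. Transcripts were counted in single nuclei from the brains of C57BL/6 S-56 mouse pups, without olfactory bulbs and cerebellum, after neuronal nuclei carrying the NeuN protein had been sorted away. The LPA group had received 5 µl of oleoyl lysophosphatidic acid (LPA, a signalling lipid carried in blood) in the right lateral ventricle at postnatal day 7, as a model of hydrocephalus after bleeding. The vehicle group had received the albumin carrier in the same way, and both were taken at postnatal day 15. Each group held 3 libraries, 1 mouse each, and the LPA concentration used for these brains is not given in the sources used here.

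Basement membranes are thin sheets of laminin and collagen IV that are joined by nidogen and perlecan and lie under endothelium, around pericytes and below the pia. Laminins form trimers of an alpha, a beta and a gamma chain, and collagen IV forms triple helices of chains whose genes lie in pairs, head to head on the same chromosome. Fibrillar collagens, above all types I, III and V, build the fibres of the connective tissue of the meninges, where fibroblasts make them.

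The collagen IV genes illustrate that arrangement on the mm10 build used by the files, with start sites 21 bases apart for Col4a1 and Col4a2 on chromosome 8, 72 bases apart for Col4a3 and Col4a4 on chromosome 1 and 1309 bases apart for Col4a5 and Col4a6 on chromosome X. Upstream sequence is shown for 4 members on which the results below turn: Col15a1 and Col8a1, the members that changed in the meningeal cell types, and the Col4a5 and Col4a6 pair, which changed in astrocytes. The stretches come from RefSeq on GRCm38.p6, are written 5′ to 3′ on the strand of the gene, and end at the base before transcription starts, except that 34 exonic bases were left out for Col4a5. In the gene annotation of mm10 Col15a1 spans chr4:47208161-47313167 and Col8a1 chr16:57624258-57754737, so that the RefSeq start of Col15a1 lies upstream of the start annotated there. They lie at chr4:47207762-47208011 (plus strand) for Col15a1, chr16:57754738-57754987 (minus strand) for Col8a1, chrX:141475169-141475384 (plus strand) for Col4a5 and chrX:141474077-141474326 (minus strand) for Col4a6. Capitals mark matches, on either strand, to a GC box (GGGCGG) or a CCAAT box (CCAAT).
Col15a1: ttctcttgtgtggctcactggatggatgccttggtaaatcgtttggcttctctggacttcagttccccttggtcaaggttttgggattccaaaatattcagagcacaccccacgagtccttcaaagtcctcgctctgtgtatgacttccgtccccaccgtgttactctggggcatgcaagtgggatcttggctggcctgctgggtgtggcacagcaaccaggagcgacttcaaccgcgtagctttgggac
Col8a1: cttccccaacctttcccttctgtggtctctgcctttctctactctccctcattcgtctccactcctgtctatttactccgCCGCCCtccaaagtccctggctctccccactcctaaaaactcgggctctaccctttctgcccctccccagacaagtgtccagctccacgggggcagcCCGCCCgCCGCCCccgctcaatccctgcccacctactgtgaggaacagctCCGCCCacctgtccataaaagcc
Col4a5: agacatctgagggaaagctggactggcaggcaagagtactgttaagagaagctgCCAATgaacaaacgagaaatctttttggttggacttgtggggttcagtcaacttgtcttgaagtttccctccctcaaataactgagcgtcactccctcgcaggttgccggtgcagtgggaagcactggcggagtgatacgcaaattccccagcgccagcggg
Col4a6: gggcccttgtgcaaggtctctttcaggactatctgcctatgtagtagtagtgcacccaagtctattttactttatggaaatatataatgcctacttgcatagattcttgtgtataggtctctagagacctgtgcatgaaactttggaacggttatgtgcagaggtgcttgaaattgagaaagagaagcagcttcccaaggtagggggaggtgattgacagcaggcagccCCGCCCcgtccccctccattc
Col8a1 held 4 GC boxes, Col4a6 held 1 GC box and Col4a5 held 1 CCAAT box, while Col15a1 held neither. None of the 4 held a TATA box (TATAAA), an AP-1 motif (TGANTCA) or a TEAD motif (GGAATG). Among 32851 such windows of RefSeq genes, 32.74% held a GC box, against 22 of 31 windows of the 28 members that had one, and 33.85% held a CCAAT box. These matches are letters in a window and show no binding.

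After filters on genes, mitochondrial share and UMIs (unique molecular identifiers, 1 per captured transcript), 57443 nuclei remained, 7579 to 11745 per library, with a median of 3732 to 4578 UMIs each. Cell types were named from marker genes, so each name stands for nuclei like that type, and the members were kept out of the genes used for clustering. Clusters with mixed markers (6962 nuclei) and other unnamed clusters (1388 nuclei) entered no cell type but count in whole libraries. The former were 11.6% ± 1.37 of LPA and 12.5% ± 1.22 of vehicle libraries (SD, n = 3). The latter were 3.28% ± 0.431 and 1.69% ± 0.418. Neuron-like nuclei made up 23.3% ± 2.53 (SD, n = 3) of LPA libraries and 27.01% ± 3.12 of vehicle libraries in spite of the sort. Meningeal fibroblasts numbered 204, 328 and 225 nuclei in the LPA libraries and 451, 759 and 802 in the vehicle libraries, 2.83% ± 0.463 against 6.43% ± 0.444 of all nuclei. The Slc47a1 border cells, meningeal nuclei with a solute transporter of the arachnoid layer, stood at 1.31% ± 0.264 against 2.84% ± 0.217. For both, the exact 2-sided permutation p was 0.1, the smallest that 3 against 3 libraries allow. Libraries shared 16 to 39 barcodes pairwise, and doublet calls, which were kept, ran from 12.28 to 15.44%.

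Levels are given as UMIs counted per 1000000 UMIs of that cell type in that library (CPM) and are compared for 1 gene across cell types only. The highest level fell in different cell types for different parts of the basement membrane. Of the 41 members, and among the 13 named cell types, 12 had their highest level in meningeal fibroblasts, 6 in endothelial cells, 6 in choroid plexus epithelium and 5 each in pericytes, Slc47a1 border cells and a meningeal cluster with Dpp4 and Cdh1. Ciliated ependymal cells and microglia each held the highest level of 1 member, Col5a3 and Col27a1. For Col27a1 the libraries of microglia (183.5 CPM) overlapped those of pericytes (155 CPM).

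The 3 collagen IV pairs separated by cell type. Col4a1 reached 751 CPM in pericytes and 689.8 CPM in endothelial cells, and Col4a2 reached 547 and 692 CPM, with the libraries of the 2 cell types overlapping for both genes. Col4a3 and Col4a4 were highest in choroid plexus epithelium, at 262 and 229 CPM, and Col4a5 and Col4a6 in meningeal fibroblasts, at 551 and 466 CPM. For those 4 genes the next cell type lay below in every library. Next were endothelial cells for Col4a3 (20.8 CPM), ciliated ependymal cells for Col4a4 (69.2 CPM) and choroid plexus for Col4a5 and Col4a6 (189.9 and 35.4 CPM).

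Among the laminin alpha chains, which set the partners and receptors of a trimer, Lama1 stood at 681 CPM in meningeal fibroblasts against 127 CPM in endothelial cells, with no overlap. Lama2 was about as high in meningeal fibroblasts (1004 CPM) as in pericytes (985 CPM), with astrocytes next at 720.4 CPM. Lama4, the alpha chain of vessel walls, led in endothelial cells at 660.4 CPM, but overlapped pericytes (519.8 CPM). Lamc1, the common gamma chain, and Nid1, which links laminin to collagen IV, led in pericytes at 700.4 and 400.0 CPM, above the next cell type in every library. Lamb1, a beta chain, led there too (175 CPM), but overlapped endothelial cells (107 CPM). Hspg2, the proteoglycan perlecan, and Agrn, the proteoglycan agrin, were highest in endothelial cells at 217 and 374 CPM. Hspg2 did not overlap the next cell type, but Agrn overlapped pericytes (301 CPM).

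Collagens I and III, the main fibrillar collagens, were highest in meningeal cells among the named cell types. Col1a1, Col1a2 and Col3a1 stood at 309.8, 579.5 and 336 CPM in meningeal fibroblasts and at 167, 372 and 200.1 CPM in Slc47a1 border cells, without overlap. A small cluster led by the bone genes Bglap and Ibsp, 149 nuclei with no name among the markers, held more of both collagen I chains. It had 1750.0 CPM of Col1a1 and 3046 CPM of Col1a2, and contributed 10.18% of the Col1a1 UMIs in the nuclei kept. Barcodes over the mitochondrial limit, which also hold Col1a1, are not in that share. Fn1, which codes for fibronectin, reached 2747 CPM in the Dpp4 Cdh1 meningeal cells and 1009 CPM in endothelial cells. The same Dpp4 Cdh1 cells and the Slc47a1 border cells held the most Col25a1, a transmembrane collagen, at 2384 and 1895 CPM.

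**Figure D1:**
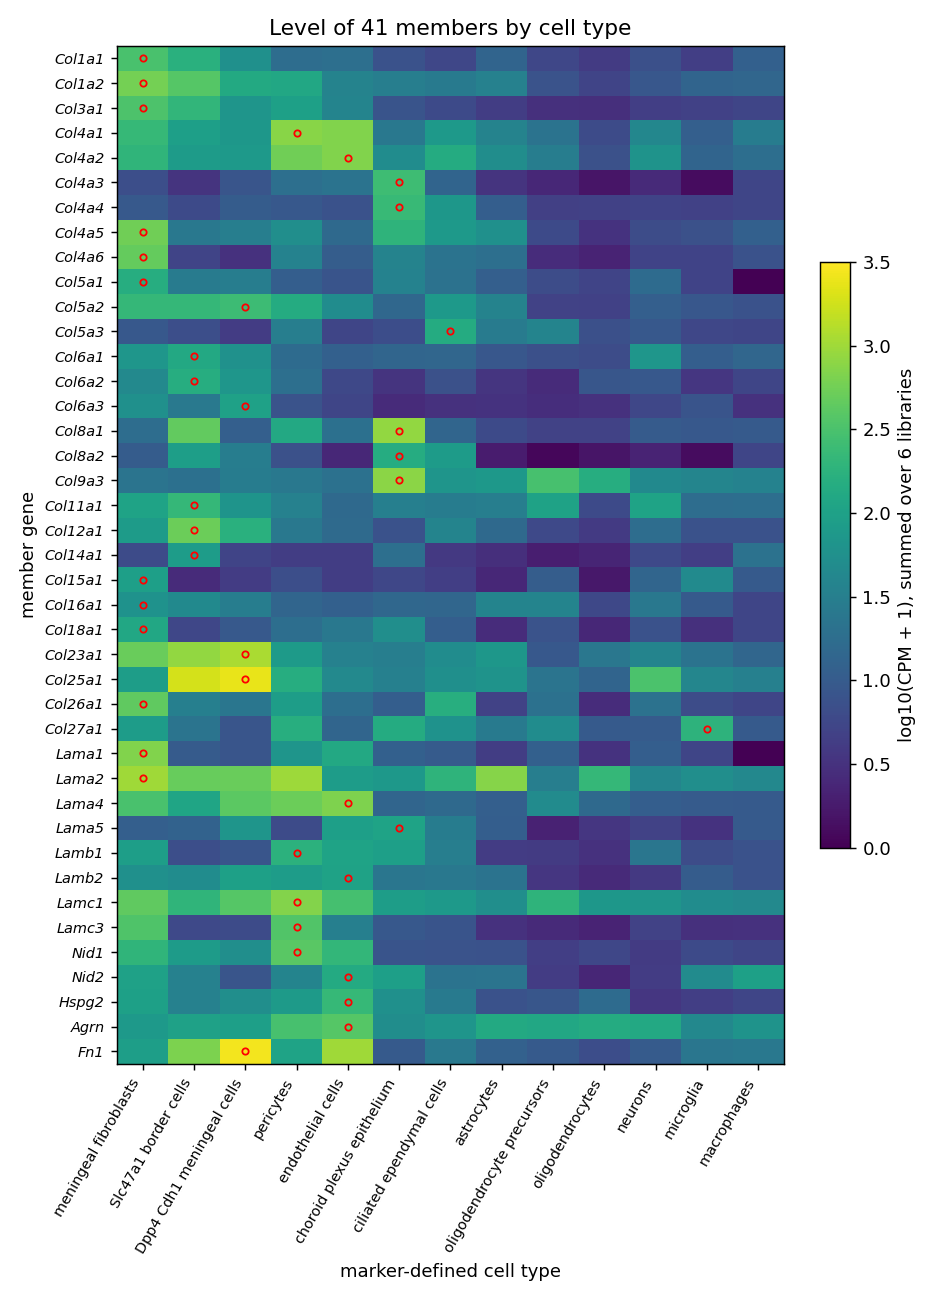
Level of the 41 members (rows) in 13 marker-defined cell types (columns), as log10 of CPM plus 1 with UMIs summed over the 6 libraries, and a red ring at the highest cell type of each gene. Meningeal fibroblasts hold 12 rings and microglia 1, and the rings of the 6 collagen IV genes fall in 4 columns.

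The effect of LPA was tested within each cell type with edgeR's quasi-likelihood test on UMIs summed per library. The p-values measure the spread between 3 libraries a group. A gene was called at a Benjamini-Hochberg adjusted p under 0.05 over all genes tested together with a log2 fold change at or beyond 0.25 in size. In meningeal fibroblasts 1 of the 39 members tested was called, against 1.3% of all 11041 genes. That gene was Col15a1, whose product, collagen XV, lies just beneath basement membranes. Most other members leaned upward without passing: 32 of 39 fold changes were above 0, with a median of 0.20 on the log2 scale against -0.002 for all genes tested. By unadjusted p under 0.05 there were 15 members higher and 1 lower, 16 in all, where 10.34% of all genes passed that limit.

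Col15a1 stood at 173, 120.0 and 146 CPM in the LPA libraries and at 69.6, 81.1 and 65.2 CPM in the vehicle libraries, so that every LPA library lay above every vehicle library. The log2 fold change was 1.00 ± 0.14 (SE), with an adjusted p of 0.000137 by edgeR. The call held with each library left out and in 14 of 15 alternatives in all. The fibroblasts fell into 4 sub-clusters, and Col15a1 was itself among the leading genes of sub-cluster 1, with Enpp1 and Scara5. That sub-cluster made up 35.06 to 46.57% of fibroblasts with LPA and 23.06 to 29.51% with vehicle. With the same number of nuclei of each sub-cluster drawn from every library, the log2 fold change was 0.55 and the adjusted p 0.115, with 8653 genes tested. How much of the change over all fibroblasts comes from that mix was not tested further.

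Within sub-clusters the difference was uneven. Sub-cluster 3 held 30, 75 and 52 nuclei in the LPA libraries, and sub-cluster 6 held 30, 30 and 39. Their smallest libraries had 97031 and 88047 UMIs of all genes, so the CPM values there rest on few UMIs of Col15a1. In sub-cluster 3, led by Cyp26b1, which breaks down retinoic acid, Col15a1 stood at 72.1, 77.0 and 117 CPM with LPA and at 10.2, 20.8 and 18.6 CPM with vehicle. There it rose by 2.36 ± 0.39 on the log2 scale (adjusted p = 1.2e-05), as the 1 member called among 33, where 2.1% of 6090 genes were. In sub-cluster 6, led by Coch, it rose by 1.68 ± 0.32 (adjusted p = 0.0142), the 1 call among 32 members where 0.486% of 5148 genes were, from 59.6, 43.2 and 30.9 CPM to 124, 170.4 and 137 CPM. In sub-cluster 1, where its level was highest, the LPA libraries stood at 324, 292 and 256 CPM and the vehicle libraries at 241, 252 and 213 CPM, with a log2 difference of 0.30 ± 0.15 (adjusted p = 0.636). No overlap was seen in any of these 3 sub-clusters. Sub-cluster 5, led by Cftr, had Col15a1 at no more than 18.6 CPM in any library and gave no test for it. No member was called in sub-cluster 1 (34 tested, 0.163% of 6141 genes) or sub-cluster 5 (27 tested, 0.0491% of 6105 genes). There 4 and 6 members had an unadjusted p under 0.05, where 8.012% and 6.388% of all genes did.

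**Figure D2:**
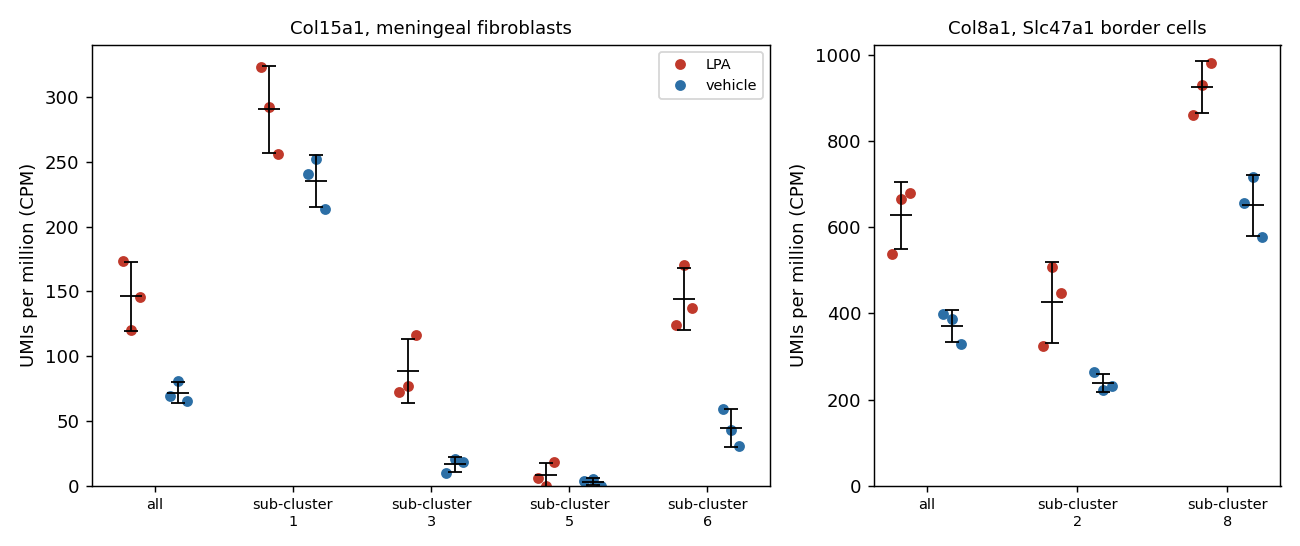
CPM of Col15a1 in meningeal fibroblasts (left) and of Col8a1 in Slc47a1 border cells (right), over all nuclei and per sub-cluster, with 1 point per library and bars for the mean ± SD of 3 libraries. LPA points lie above vehicle points for both genes over all nuclei, and for Col15a1 the gap is widest, in relative terms, in sub-clusters 3 and 6.

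None of the other 38 members tested in fibroblasts passed in the same fit. Col5a3, a fibrillar collagen chain with 62 UMIs in all, had the highest fold change, 1.34 ± 0.37 (adjusted p = 0.0694), with no LPA library under 13.4 CPM and no vehicle library over 6.97 CPM. Hspg2 stood at 120.5, 103 and 153 CPM with LPA and 103, 71.2 and 85.6 CPM with vehicle, a log2 difference of 0.54 ± 0.15 (adjusted p = 0.0764), with overlap. Col4a1 differed by 0.51 ± 0.15 (adjusted p = 0.119), with LPA libraries at 339, 178 and 345 CPM and vehicle libraries at 203, 217 and 177 CPM. Its partner Col4a2 stood at 286, 194 and 241 CPM against 184, 182 and 169 CPM, with no overlap, and differed by 0.42 ± 0.12 (adjusted p = 0.0765). Lamc1 differed by 0.38 ± 0.10 (adjusted p = 0.0674) and its groups did not overlap either. Without LPA replicate 2, in which Col4a1 and Col4a2 were the lowest of the LPA group, Col4a1, Col4a2 and Hspg2 were called beside Col15a1, at 0.79, 0.58 and 0.69. Without vehicle replicate 1 Hspg2 and Col1a1 were called beside it, at 0.66 and 0.45, and without vehicle replicate 2 Lamc1, at 0.46. With no filter on low counts Col4a1, Col4a2, Hspg2 and Lamc1 were called as well, at 0.49, 0.40, 0.515 and 0.36.

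The genes that fibroblasts hold most of were not called either. Lama1 stood at 867, 656 and 810.1 CPM against 609, 629 and 688 CPM and Lama2 at 1004, 819.7 and 887 CPM against 1018, 1065 and 1068 CPM, with differences of 0.28 ± 0.11 and -0.21 ± 0.10, and the libraries of Lama2 did not overlap. Col4a5 stood at 656, 439 and 498 CPM against 586, 542 and 578 CPM (-0.10 ± 0.12) and Col4a6 at 611, 442 and 516 CPM against 440.0, 452 and 446 CPM (0.23 ± 0.11), with overlap. For collagens I and III the LPA libraries also ran into the vehicle libraries. Col1a1 stood at 376, 361 and 338 CPM against 366, 284 and 242 CPM (0.29 ± 0.12), Col1a2 at 696, 521 and 659 CPM against 652, 568 and 510.5 CPM (0.12 ± 0.11) and Col3a1 at 408, 397 and 347 CPM against 395, 297 and 279.6 CPM (0.26 ± 0.11). All 8 fibrillar collagens had fold changes above 0, with a median of 0.28, but none was called. Col4a3 and Col14a1 were too low to test. The 20 meningeal markers summed to 10180 to 10660 CPM with LPA and 9659 to 10320 CPM with vehicle, and none of them was called. Smooth muscle markers there summed to 69.3 to 99.8 CPM against 138 to 159 CPM, with 2 of 4 tested lower. Endothelial markers summed to 393 to 464 CPM against 492 to 558 CPM, with none of 8 called. Of the border markers 2 of 11 were higher. Pericyte, oligodendrocyte precursor and macrophage markers had 1 higher each, and oligodendrocyte markers 1 lower. The part of these markers was not tested.

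In the Slc47a1 border cells 1 of 31 members tested was called, against 0.677% of 8715 genes. It was Col8a1, a short-chain collagen of the kind that forms the sheet under corneal and vascular endothelium. Col8a1 stood at 538, 666 and 679 CPM in the LPA libraries and at 399, 386 and 329 CPM in the vehicle libraries, with no overlap. It rose by 0.77 ± 0.12 on the log2 scale (edgeR adjusted p = 0.00108), and all 15 alternatives kept the call, with values from 0.65 to 0.87. The border cells fell into sub-clusters 2, led by Tspan11 and Slc47a1, and 8, led by Esr2 and with Col8a1 among its leading genes. In sub-cluster 2 the LPA libraries stood at 323, 507 and 448 CPM and the vehicle libraries at 263, 222 and 231 CPM, a rise of 0.87 ± 0.15 (adjusted p = 0.00356), the 1 call among 30 members where 0.744% of 6993 genes were called. In sub-cluster 8 they stood at 861, 931 and 982 CPM against 657, 717 and 578 CPM, also apart, with a difference of 0.52 ± 0.14 (adjusted p = 0.133). None of 22 members was called there, where 0.193% of 4653 genes were. Sub-cluster 8 made up 36.77 to 39.64% of border cells with LPA and 26.75 to 32.12% with vehicle. With the same mix of both in every library Col8a1 still rose, by 0.65 (adjusted p = 0.0483). Choroid plexus epithelium, where Col8a1 was highest, showed no such difference, with 1006, 753 and 864 CPM against 949, 722 and 836 CPM and a log2 difference of 0.08 ± 0.12.

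By unadjusted p under 0.05, 10 members of the border cells, Col8a1 included, were higher and 2 were lower, where 9.076% of all genes passed that limit. Col14a1, a collagen that binds to fibres, stood at 162.5, 83.5 and 120.3 CPM with LPA and 77.7, 75.1 and 51.5 CPM with vehicle, a difference of 0.81 ± 0.21 (adjusted p = 0.0845). Lama4 stood at 173, 115 and 161 CPM against 94.9, 96.3 and 95.5 CPM, a difference of 0.63 ± 0.16 (adjusted p = 0.0844). Col1a2 went the other way, with 229, 279 and 379 CPM against 469, 383 and 394 CPM and a difference of -0.47 ± 0.14 (adjusted p = 0.163). The groups did not overlap for any of these. Without LPA replicate 2, Lama4 and Col14a1 were called at 0.83 and 1.07, and without LPA replicate 3 Col1a2 was called at -0.68. Col25a1 and Fn1, which border cells also hold, gave 0.23 ± 0.10 and 0.35 ± 0.11 without a call. The 12 astrocyte markers in border cells summed to 3346 to 3849 CPM with LPA and 2876 to 3096 CPM with vehicle, with 1 of 8 tested called higher, and their part in these values was not tested.

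Lama4 was the 1 member of 30 tested that was called for a difference in the effect of LPA between border cells and fibroblasts. In fibroblasts it stood at 327, 286 and 264 CPM with LPA and 350.1, 314 and 304 CPM with vehicle, a log2 difference of -0.13 ± 0.10, with overlap, so that the 2 cell types differed in the effect of LPA by 0.76 ± 0.18 (adjusted p = 0.0255). This test called 0.684% of 8483 genes, and 7 of the 30 members had an unadjusted p under 0.05. Without LPA replicate 1, LPA replicate 3, vehicle replicate 1 or vehicle replicate 3 the Lama4 difference was 0.73, 0.64, 0.70 or 0.81 and was not called. Col5a1 and Col1a2 differed by -1.31 ± 0.34 and -0.57 ± 0.15 without a call (adjusted p = 0.0539 and 0.0671). Col5a1 was called without LPA replicate 1 or vehicle replicate 2, at -1.59 and -1.45, and Col1a2 without LPA replicate 3, at -0.72. Col8a1 differed by 0.44 ± 0.29 between those cell types (adjusted p = 0.758), its level in fibroblasts being 17.1 CPM. No member was called for pericytes against fibroblasts, where 0.595% of 7727 genes were, or for endothelial cells against pericytes, where 0.0426% of 7040 genes were. By unadjusted p under 0.05 there were 8 of 29 and 4 of 22 members. The share of all genes under that limit was not computed for any of these differences. Col4a6 had the smallest p of the former 8, with a difference of -0.99 ± 0.33 (adjusted p = 0.254), and Col3a1 of the latter 4, with -1.11 ± 0.34 (adjusted p = 0.418). Without vehicle replicate 3, Col25a1 and Col4a6 were called in the former, at -1.10 and -1.28, and Col1a1 was called there without LPA replicate 2, LPA replicate 3 or vehicle replicate 1, at -2.09, -2.21 and -2.33. Col12a1 was called in the latter without vehicle replicate 1, at -2.71.

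In the cells of the vessel wall itself no member was called. Pericytes had 29 members tested, where 0.19% of 7912 genes were called, and endothelial cells 24, where 0.182% of 8248 were. DESeq2 also called no member in either, with 6 genes called in pericytes and 8 in endothelial cells. An unadjusted p under 0.05 was found for 4 pericyte and 6 endothelial members, where 8.152% and 7.323% of all genes passed that limit. Col4a1 in pericytes stood at 804, 820.5 and 789.7 CPM with LPA and 875, 601 and 689.7 CPM with vehicle, a difference of 0.16 ± 0.11. In endothelial cells it stood at 647, 624 and 773 CPM against 901, 616 and 597 CPM, a difference of -0.06 ± 0.14. Both sets overlap, as do those of Col4a2, which differed by 0.12 ± 0.11 and 0.13 ± 0.14. Simulated counts with a 1 log2 change gave calls for 60% of changed genes in pericytes and 59.5% in endothelial cells. These were 120 and 119 genes, beside 10 and 9 unchanged genes that were also called. Smaller changes were not simulated.

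The laminins and proteoglycans of the vessel wall gave no call either. Lama4 in endothelial cells stood at 691, 676 and 818 CPM with LPA and at 623, 533 and 578 CPM with vehicle, without overlap, but the difference of 0.32 ± 0.12 was not called (adjusted p = 0.455). In pericytes it differed by 0.19 ± 0.11. In pericytes Lamc1 stood at 703, 760.3 and 775 CPM against 728, 604 and 661 CPM (0.17 ± 0.10), Lama2 at 973, 1043 and 979.9 CPM against 1044, 897 and 1005 CPM (0.02 ± 0.10) and Lamb1 at 178, 179 and 137 CPM against 197, 150.3 and 216 CPM (-0.18 ± 0.16). Nid1 stood there at 425, 372 and 395 CPM against 426, 403 and 389.8 CPM (-0.03 ± 0.11). The groups overlapped for all 4. In endothelial cells Hspg2 stood at 216, 204 and 237 CPM against 262, 223 and 167 CPM (0.01 ± 0.15) and Agrn at 401, 383 and 425 CPM against 428, 310.1 and 285 CPM (0.23 ± 0.14), with overlap, and Fn1 at 1111, 1060.0 and 1081 CPM against 943, 912 and 911 CPM (0.22 ± 0.11), without. Lama1 in endothelial cells, at 146, 145.9 and 170.5 CPM against 60.9, 87.4 and 132 CPM, had the highest fold change there, 0.69 ± 0.20 (adjusted p = 0.201). It was called without vehicle replicate 3 at 1.05, with no limit on mitochondrial share at 0.80 and with no filter on low counts at 0.72.

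Col25a1 was lower in both vessel cell types without passing. In pericytes it stood at 70.9, 120.3 and 125 CPM with LPA and 327, 189 and 97.4 CPM with vehicle, a difference of -0.88 ± 0.26 (adjusted p = 0.284), and in endothelial cells, at 22.7, 32.9 and 27.6 CPM against 32.5, 83.2 and 73.5 CPM, by -1.17 ± 0.30 (adjusted p = 0.121). Both sets overlap. It was called without vehicle replicate 3 in pericytes, at -1.20, and without vehicle replicate 1 in endothelial cells, at -1.47. The meningeal markers in endothelial cells summed to 249.8 to 488 CPM with LPA and 597 to 705 CPM with vehicle, with 2 of 10 tested lower. In pericytes they summed to 1946 to 2259 CPM against 2310 to 2511 CPM, with 1 of 11 tested lower. Markers of border cells, which hold much Col25a1, overlapped between the groups. They summed to 2210 to 2330 CPM against 2102 to 2394 CPM in endothelial cells, with 1 of 6 tested lower. In pericytes these border markers summed to 335.5 to 459.5 CPM against 420.3 to 874.9 CPM, with 1 of 5 tested lower. The part of both marker lists in the Col25a1 values was not tested. Col12a1 was called in endothelial cells without vehicle replicate 1, at -2.20.

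In the Dpp4 Cdh1 meningeal cells, with 29 to 90 nuclei per library, none of 18 members was called, against 0.143% of 3503 genes. DESeq2 called no gene there at all. No member had an unadjusted p under 0.05, where 7.908% of all genes did. Fn1, highest in these cells, stood at 3159, 3216 and 2812 CPM against 2717, 2304 and 2591 CPM (0.25 ± 0.13), without overlap. Smooth muscle nuclei numbered 23 over all libraries, with none in LPA replicates 1 and 2, and were not tested.

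When all meningeal and vessel nuclei of a library were summed as 1 class of vascular cells, 15 of 41 members were called, against 8.27% of 13845 genes, 10 of them higher, where 4.98% of genes were called higher, and 5 lower, where 3.29% were called lower. The higher ones included genes that endothelial cells and pericytes hold most of. Col4a1 stood at 454, 385 and 505 CPM with LPA and 366, 273 and 267 CPM with vehicle (log2 fold change 0.58 ± 0.11), and Col4a2 at 419, 339.9 and 429 CPM against 301, 231 and 247 CPM (0.61 ± 0.10). Agrn stood at 220.0, 201 and 215 CPM against 176, 129 and 130.5 CPM (0.56 ± 0.10) and Lama4 at 435, 399 and 476 CPM against 352, 303 and 322 CPM (0.43 ± 0.08). Fn1, for fibronectin, stood at 619.9, 600.0 and 570.2 CPM against 534, 406 and 423 CPM (0.40 ± 0.09). Except for Fn1, these genes had their highest level in pericytes or endothelial cells. Fn1 was highest in the Dpp4 Cdh1 meningeal cells, at 2747 CPM against 1009 CPM in endothelial cells. Lamc1 stood at 454, 427 and 468 CPM against 364, 380.2 and 344 CPM (0.32 ± 0.07) and Lama5, an alpha chain of mature vessels and epithelia, at 34.9, 35.7 and 37.96 CPM against 32.2, 15.9 and 22.1 CPM (0.68 ± 0.19). Of the other collagens Col5a3 stood at 10.2, 16.01 and 16.8 CPM against 9.29, 7.05 and 6.80 CPM (0.94 ± 0.23). Col15a1 stood at 55.8, 43.7 and 43.6 CPM against 33.5, 37.2 and 32.1 CPM (0.47 ± 0.13) and Col8a1 at 136, 157 and 164 CPM against 120.1, 132 and 105 CPM (0.36 ± 0.10), smaller changes than within fibroblasts and border cells alone. The lower ones included genes that fibroblasts and border cells hold most of. Col4a5 stood at 219, 171 and 159.6 CPM against 273, 257 and 288 CPM (-0.57 ± 0.10), and Col1a2 at 296, 266 and 296 CPM against 425, 380.4 and 358 CPM (-0.43 ± 0.08). Lama2 stood at 634, 602 and 578 CPM against 727, 771 and 771 CPM (-0.32 ± 0.07). Its level in pericytes was close to that in fibroblasts (985 and 1004 CPM), and the libraries overlapped. Of the chains of collagen VI, which forms beaded filaments, Col6a1 stood at 53.5, 50.7 and 51.3 CPM against 88.2, 61.5 and 64.8 CPM (-0.44 ± 0.13) and Col6a2 at 50.7, 47.7 and 40.98 CPM against 72.3, 59.5 and 61.95 CPM (-0.46 ± 0.12). None of these 15 had groups that overlapped, among 17 of 41 members without overlap. The calls rest on the same libraries, so this adds no separate support, and the share over all genes was not computed. Of the 15, 6 were called with each library left out, namely Col4a1, Col4a2, Agrn, Lama4, Col4a5 and Col1a2. There were 13, 13 and 8 members called without LPA replicates 1, 2 and 3, and 16, 14 and 7 without vehicle replicates 1, 2 and 3. Of all genes, 727 of 14104 were called without LPA replicate 3 and 743 of 14104 without vehicle replicate 3. Lama5 fell to 0.45 without vehicle replicate 2 and Col6a1 to -0.29 without vehicle replicate 1.

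The make-up of this class differed between the groups. Meningeal fibroblasts were 28.85 to 33.54% of it with LPA and 43.53 to 46.11% with vehicle, while pericytes were 21.57 to 26.2% against 14.67 to 16.77% and endothelial cells 24.74 to 27.44% against 11.54 to 16.7%. With the same number of nuclei of each type drawn from every library, 65 of 12634 genes and 3 members were called. These were Col15a1 at 0.97 (adjusted p = 0.00449), Col8a1 at 0.70 (adjusted p = 0.00103) and Lama1 at 0.36 (adjusted p = 0.0339). The other 13 members called before were not. Col4a1 and Col4a2 went to 0.15 and 0.12, Agrn to 0.14, Lama4 to 0.21, Fn1 to 0.23 and Lamc1 to 0.25, Col5a3 to 0.40 and Lama5 to 0.19. Among the lower ones Col4a5 went to -0.18, Col1a2 to -0.15, Lama2 to -0.16, Col6a1 to -0.26 and Col6a2 to -0.10.

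**Figure D3:**
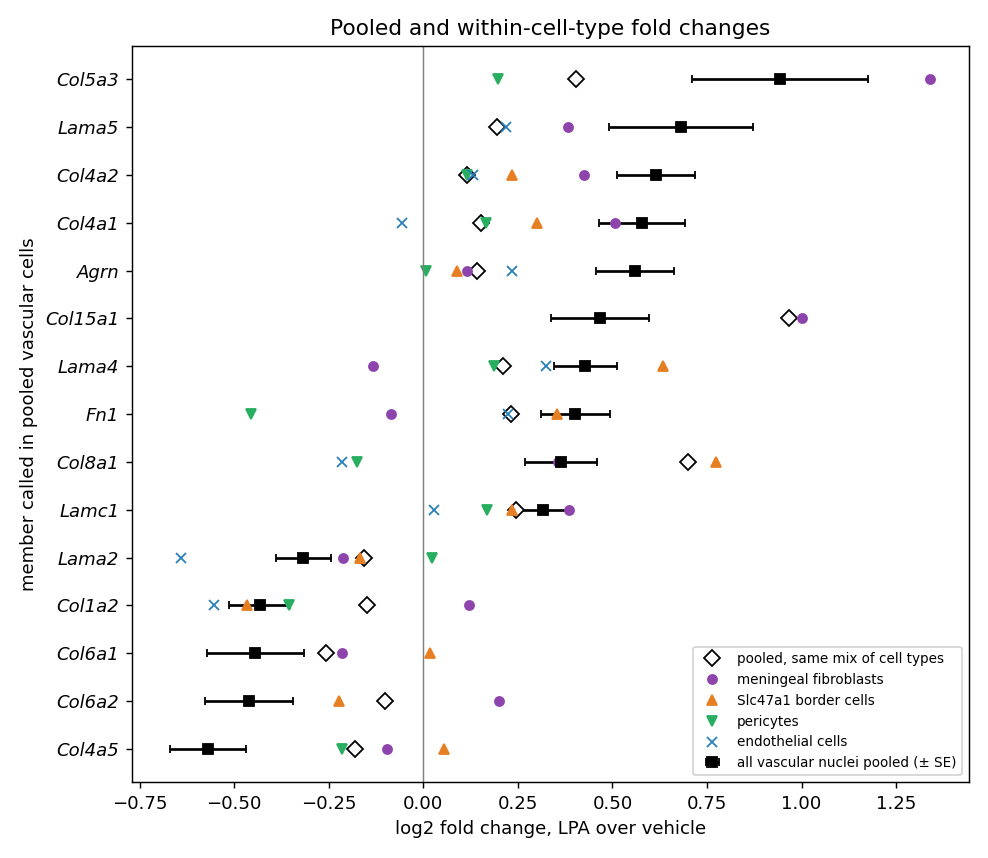
Log2 fold change, LPA over vehicle, of the 15 members called in the pooled vascular cells: pooled (squares, ± SE), pooled with the same mix of cell types (open diamonds) and within 4 cell types (coloured marks, absent where not tested). For Col4a1, Col4a2 and Agrn the diamond lies at 0.12 to 0.15 and the square at 0.56 to 0.61, while for Col15a1 and Col8a1 the diamond lies further from 0 than the square.

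Over whole libraries, all nuclei summed, 16 of 41 members were called, against 5.62% of 20207 genes. In 1 direction each, 3.41% of genes were called higher and 2.21% lower. In such sums fewer cells of a type and less RNA per cell cannot be told apart. Col4a4 was the 1 member higher (12.4, 12.2 and 12.7 CPM against 10.6, 6.92 and 8.35 CPM, log2 fold change 0.54 ± 0.13, adjusted p = 0.0493). All 15 others fell, and their groups did not overlap, among 20 of 41 members without overlap. As the calls rest on the same libraries, this adds no separate support, and the share over all genes was not computed. Lamc3, a gamma chain of pericytes and fibroblasts, stood at 16.5, 17.7 and 14.8 CPM against 27.5, 26.9 and 28.4 CPM (-0.75 ± 0.07). Col1a2 stood at 34.1, 35.4 and 29.96 CPM against 58.5, 61.5 and 74.4 CPM (-0.97 ± 0.10), and Col1a1 at 16.4, 18.8 and 14.0 CPM against 29.9, 29.7 and 36.3 CPM (-0.96 ± 0.12). Another collagen of the same fibres, Col3a1, stood at 15.7, 19.1 and 15.3 CPM against 28.9, 28.01 and 27.97 CPM (-0.76 ± 0.08). Of basement membrane genes Lama1 stood at 29.9, 29.5 and 25.03 CPM against 38.2, 43.3 and 49.3 CPM (-0.63 ± 0.10) and Nid1 at 19.6, 21.1 and 19.4 CPM against 26.7, 25.6 and 27.2 CPM (-0.40 ± 0.06). Col18a1, the source of endostatin, stood at 8.86, 9.58 and 8.26 CPM against 13.5, 11.7 and 13.4 CPM (-0.53 ± 0.09). The fibroblast pair of collagen IV moved together, with Col4a5 at 35.9, 35.7 and 29.5 CPM against 45.5, 43.9 and 47.96 CPM (-0.44 ± 0.08) and Col4a6 at 22.1, 20.03 and 17.6 CPM against 24.97, 29.6 and 30.7 CPM (-0.51 ± 0.11). All 3 chains of collagen VI fell, by 0.29 for Col6a1, 0.54 for Col6a2 and 0.49 for Col6a3, with Col6a1 at 32.4, 30.2 and 32 CPM against 40.3, 36.8 and 39.5 CPM. Col6a2 stood at 8.60, 9.95 and 8.21 CPM against 13.4, 13.04 and 12.6 CPM and Col6a3 at 5.12, 6.10 and 4.90 CPM against 8.38, 6.68 and 7.75 CPM. Of the transmembrane collagens Col25a1 stood at 178, 154 and 159 CPM against 199, 225 and 227 CPM (-0.40 ± 0.08) and Col23a1 at 67.1, 72.01 and 61.7 CPM against 81.5, 87.6 and 89.9 CPM (-0.36 ± 0.07). Col26a1, a collagen highest in fibroblasts, stood at 26.1, 31 and 28.8 CPM against 35.8, 37.2 and 38.7 CPM (-0.37 ± 0.07). Col4a1, Col4a2, Lamc1 and Agrn gave -0.03 ± 0.07, 0.07 ± 0.06, -0.01 ± 0.05 and 0.06 ± 0.06. Col1a1, Col1a2, Col3a1, Lama1, Lamc3 and Nid1 were called with each library left out, and the other 10 were not. There were 9, 12 and 9 members called without LPA replicates 1, 2 and 3, and 17, 13 and 7 without vehicle replicates 1, 2 and 3. Of all genes, 484 of 20469 were called without LPA replicate 1 and 824 of 20434 without LPA replicate 3. Without vehicle replicate 3, 596 of 20388 were. The call of Col4a4 was lost in 10 of 15 alternatives.

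With the meningeal nuclei and the Bglap Ibsp cluster left out of the sums, 5 of 41 members were called, where 931 of 20030 genes were. Col1a1, Col1a2, Col3a1 and Lamc3 still fell, by 0.94, 0.72, 0.67 and 0.46, and Nid2, a nidogen of vessel walls, rose by 0.40. Col4a5 and Col4a6 went to 0.01 and -0.11. The value of Col1a1 also turned on a filter. Nuclei with over 1% mitochondrial UMIs had been left out, and with them kept Col1a1 gave -0.23 ± 0.07 (adjusted p = 0.0919) and was not called, while Col1a2 and Col3a1 fell by 0.34 and 0.47.

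**Figure D4:**
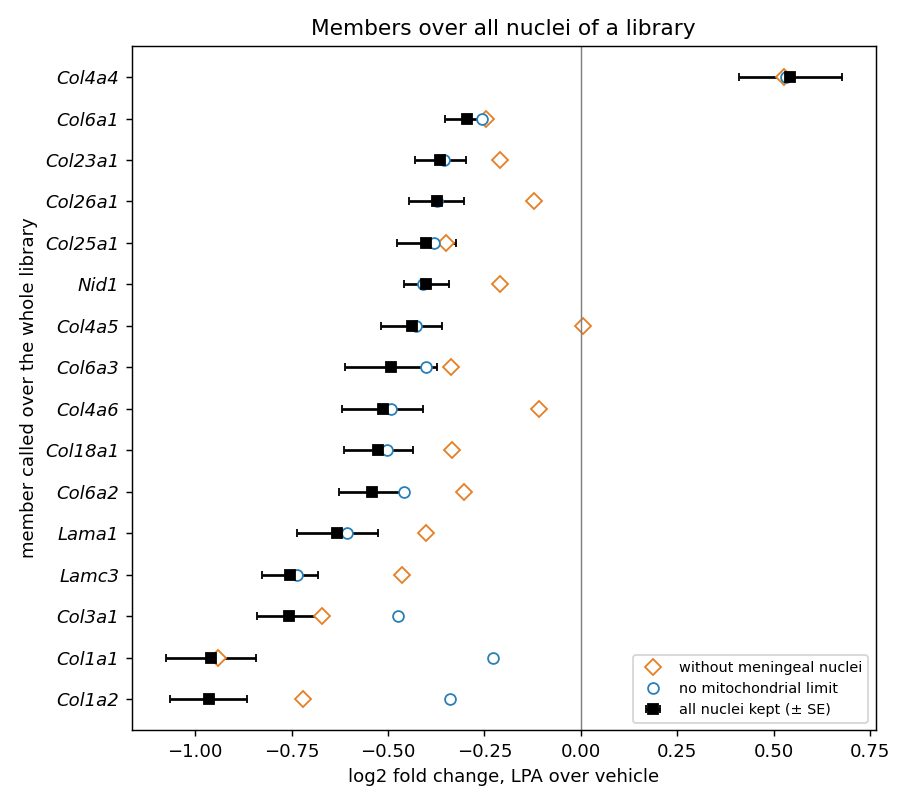
Log2 fold change, LPA over vehicle, of the 16 members called over all nuclei of a library (squares, ± SE), without meningeal nuclei (diamonds) and with no limit on mitochondrial share (circles). Col4a5 moves to 0.01 without meningeal nuclei, and Col1a1 moves to -0.23 without the mitochondrial limit.

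Outside the meninges and vessels the clearest differences were in astrocytes, which lay down basement membrane at the pial surface together with fibroblasts. Of 39 members tested 8 were called, against 8.24% of 14615 genes, with 5.05% called higher and 3.2% lower. The 3 members of collagen IV called there all rose, and both chains of collagen I fell. Col4a6 stood at 24.97, 21.05 and 30.02 CPM with LPA and 7.76, 10.5 and 8.36 CPM with vehicle (log2 fold change 1.48 ± 0.17, adjusted p = 2.0e-05), and Col4a4 at 12.8, 12.1 and 17.8 CPM against 6.03, 5.24 and 4.08 CPM (1.49 ± 0.21, adjusted p = 0.000197). Col4a5 stood at 62.1, 69.2 and 57.2 CPM against 49.1, 46.0 and 46.7 CPM (0.43 ± 0.08, adjusted p = 0.00297). Lama5 stood at 12.01, 14.8 and 10.7 CPM against 8.04, 5.89 and 7.34 CPM (0.87 ± 0.19), and Col16a1 and Col12a1 rose by 0.75 and 0.57. Col1a1 stood at 10.6, 8.64 and 7.995 CPM against 17.5, 14.6 and 17.7 CPM (-0.84 ± 0.16) and Col1a2 at 29.6, 29.7 and 25.8 CPM against 44.2, 35.4 and 42.2 CPM (-0.49 ± 0.11). The groups were apart for all 8, among 15 of the 39 members tested, which adds no separate support to calls made on the same libraries. The share of all genes with groups apart was not computed. With no limit on mitochondrial share neither collagen I chain was called, with Col1a1 at -0.41 (adjusted p = 0.142) and Col1a2 at -0.19 (adjusted p = 0.277), nor was Col12a1, at 0.50. Lama2, a laminin that astrocytes share with fibroblasts and pericytes, gave -0.03 ± 0.07. Lama5 was not called without LPA replicate 2 or vehicle replicate 2, at 0.73 each time, and Col12a1 was not called without LPA replicate 2, vehicle replicate 1 or vehicle replicate 3, at 0.51, 0.49 and 0.52.

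Col4a4 and Col4a6 were highest in 1 of 3 astrocyte clusters. Cluster 9, led by Myoc, Thbs4 and Gfap, made up 25.29 to 27.11% of astrocytes with LPA and 11.46 to 12.3% with vehicle. Within it Col4a4 stood at 38.9, 40.3 and 51.7 CPM against 19.1, 21.4 and 9.26 CPM, and rose by 1.45 ± 0.30. The cluster held 127, 243 and 220 vehicle nuclei, with 314621 UMIs of all genes in its smallest library. The vehicle values of Col4a4 thus rest on few UMIs. Col4a6 stood at 87.2, 71.4 and 95.4 CPM against 54.0, 48.1 and 41.7 CPM and rose by 0.91 ± 0.20, while Col4a5, at 136, 132 and 98.8 CPM against 114, 105 and 109 CPM, gave 0.26 ± 0.15 without a call. Of 26 members tested in cluster 9, 7 were called, against 8.63% of 10638 genes. Col16a1, Lama5 and Nid2 rose by 1.10, 1.62 and 1.02, and Col23a1 and Col25a1 fell by 1.35 and 1.53. In cluster 0, Col1a1 and Col1a2 fell by 1.19 and 0.63, as 2 calls among 29 members where 2.76% of 12773 genes were called, and in cluster 3 none of 25 members was called, where 0.512% of 11523 genes were. With the same mix of clusters in every library, Col4a4 and Col4a6 still rose, by 0.95 (adjusted p = 0.0382) and 0.78 (adjusted p = 0.0455). Col1a2, Col23a1 and Col25a1 fell by 0.56, 0.52 and 0.73, and Col4a5, Col12a1, Col16a1, Lama5 and Col1a1 were not called, at 0.13, 0.31, 0.46, 0.78 and -0.82.

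Markers of other cell types in the astrocyte sums also differed. The 12 ciliated ependymal markers summed to 202 to 210.5 CPM with LPA and 104 to 127 CPM with vehicle, with 7 of 11 tested higher, and their part in the rise of Col4a4, which ciliated cells hold as well, was not tested. In cluster 9 these markers summed to 492 to 608 CPM against 506 to 646 CPM, with 2 of 8 tested lower. Oligodendrocyte markers were lower in astrocytes (1000 to 1193 CPM against 1253 to 1684 CPM, 6 of 12 called), as were markers of astrocytes themselves (25100 to 26240 CPM against 27630 to 28650 CPM, 4 of 12 called). The 20 meningeal markers summed to 139.6 to 153 CPM with LPA and 185 to 194 CPM with vehicle, with 4 of 16 tested lower. The 14 border markers summed to 373 to 436 CPM against 463 to 534 CPM. In cluster 9 the border markers summed to 467 to 531 CPM against 674 to 708 CPM. The part of these in the lower values of Col1a1, Col1a2, Col23a1 and Col25a1 was not tested. Col1a1 and Col1a2 were also lower without a call in oligodendrocytes (-1.56 and -0.78), oligodendrocyte precursors (-1.39 and -0.93) and neurons (-0.85 and -1.08).

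**Figure D5:**
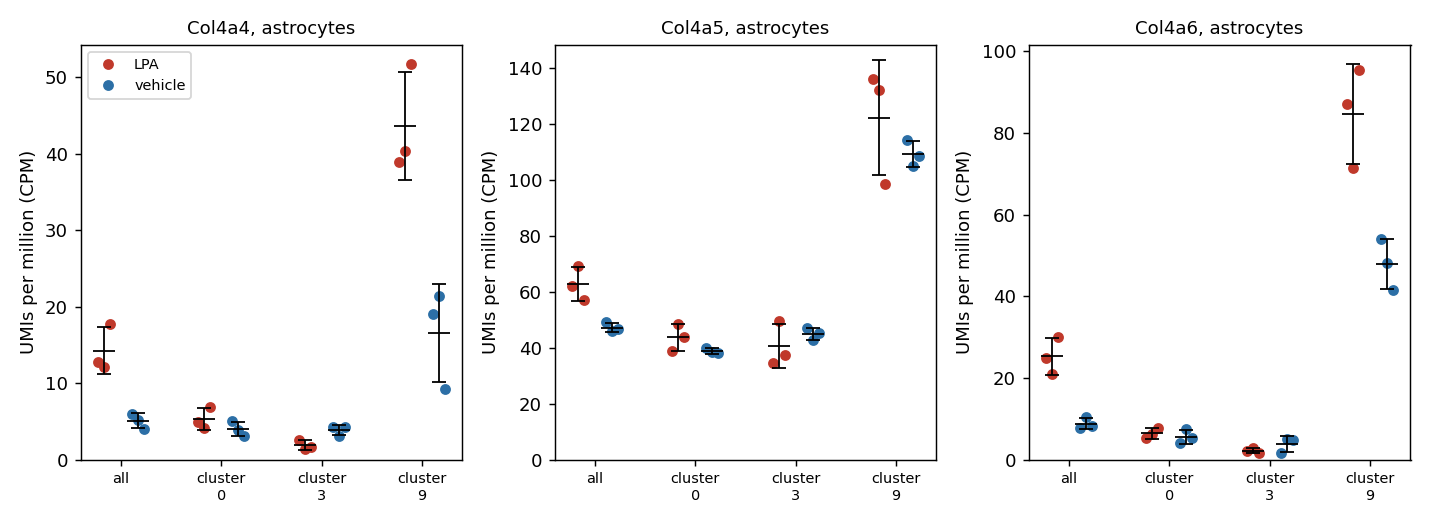
CPM of Col4a4, Col4a5 and Col4a6 over all astrocytes and in clusters 0, 3 and 9, with 1 point per library and bars for the mean ± SD of 3 libraries. All 3 genes are highest in cluster 9, where LPA and vehicle points are apart for Col4a4 and Col4a6 and overlap for Col4a5.

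In the remaining cell types few members differed. In ciliated ependymal cells 2 of 32 members were called, against 3.63% of 10799 genes. Col12a1, a collagen that binds to fibres, stood at 39.6, 52.4 and 53.1 CPM with LPA and 11.6, 15.9 and 32.8 CPM with vehicle (1.35 ± 0.30, adjusted p = 0.0162). It was not called without LPA replicate 3 (1.27), vehicle replicate 1 (0.95) or doublets (1.14). Col23a1, a transmembrane collagen, fell by 1.07 ± 0.27 (adjusted p = 0.0305), with 26.1, 31.7 and 46.1 CPM against 91.4, 34 and 84.8 CPM. Its groups overlapped, and the call was lost in 8 of 14 alternatives, with values from -1.35 to -0.725 over all of them. These were LPA replicate 1, LPA replicate 2, vehicle replicate 1 or vehicle replicate 3 left out, doublets left out, DESeq2, the Xist covariate and Leiden resolution 2. The 2 members called in these cells without doublets were thus other members. Meningeal markers there summed to 127 to 263 CPM with LPA and 325 to 449 CPM with vehicle, and border markers to 564 to 653 CPM against 742 to 848 CPM. Oligodendrocyte markers summed to 1224 to 1803 CPM against 2851 to 4184 CPM, with 6 of 10 tested lower, and choroid plexus markers to 205 to 355 CPM against 451 to 532 CPM, with 4 of 6 tested lower. The part of these markers was not tested.

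In microglia 2 of 12 members were called, against 8.51% of 9144 genes. Col27a1, a fibrillar collagen whose highest level was in microglia, fell by 0.66 ± 0.15 (adjusted p = 0.00176), with 166, 179 and 135 CPM against 242, 261 and 258 CPM. Lamc1 rose by 1.19 ± 0.33 (adjusted p = 0.0169), with 48.03, 58.6 and 65.3 CPM against 45.1, 16.5 and 27.9 CPM, on 4 to 8 UMIs per vehicle library. Both calls were lost without vehicle replicate 2, at -0.60 and 0.65, and that of Lamc1 also without LPA replicate 3, at 1.09, without doublets, at 0.99, and in DESeq2, at 1.11. The microglia of the groups lay largely in different sub-clusters. Sub-cluster 0 held 105 of 116, 296 of 320 and 94 of 105 vehicle nuclei but 188 of 384, 254 of 543 and 127 of 417 LPA nuclei. Within it neither gene was called among 7 members, where 0.289% of 5883 genes were. Col27a1 stood there at 252.5, 276 and 279.8 CPM with LPA and 243, 277 and 278.5 CPM with vehicle (-0.01 ± 0.16), and Lamc1 at 31.2, 58.1 and 71.0 CPM against 44.7, 13.6 and 25.3 CPM (1.15 ± 0.43, adjusted p = 0.466), both with overlap. Macrophage markers in microglia summed to 1797 to 2335 CPM with LPA and 453 to 722 CPM with vehicle, with 4 of 4 tested higher. The markers of microglia themselves summed to 7125 to 7991 CPM against 9595 to 12030 CPM, with 8 of 12 lower, and oligodendrocyte markers to 1685 to 1896 CPM against 2419 to 3253 CPM, with 6 of 9 tested lower. The part of these markers was not tested. No member was called in choroid plexus epithelium (30 tested, 0.0496% of 10089 genes), oligodendrocyte precursors (31 tested, 0.274% of 12766 genes), oligodendrocytes (35 tested, 0.378% of 13770 genes) or neurons (41 tested, 0.0945% of 16926 genes). By unadjusted p under 0.05 there were 3, 6, 6 and 9 members in these 4 cell types. Of all genes, 6.145%, 9%, 10.81% and 7.149% passed that limit. DESeq2 called 1 member, Col1a2, in neurons, among 33 genes. It called no member in choroid plexus epithelium, oligodendrocyte precursors and oligodendrocytes, where 6, 22 and 86 genes were called. Without 1 library, Col11a1 was called in neurons (0.42, LPA replicate 3 left out), Col1a1 in oligodendrocyte precursors (-1.70, vehicle replicate 1 left out), and Col23a1 and Col25a1 in oligodendrocytes (-0.51 and -0.66, vehicle replicate 1 left out). In macrophages no member was high enough to test.

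Genes that build, bind or cut the matrix were taken as 5 further lists. The calls below stand beside 1.3% of all genes in meningeal fibroblasts, 0.677% in border cells, 0.19% in pericytes and 0.182% in endothelial cells. In meningeal fibroblasts none of 21 tested genes for assembly and crosslinking was called, and 1 of 17 receptors fell, the integrin chain Itga9, by 0.68. Of 14 proteases and inhibitors Mmp16, a membrane-bound matrix protease, rose by 0.47 and Adamts9, a protease that cuts proteoglycans, fell by 0.75. Of 27 other fibrous matrix genes Fbn2, a fibrillin, fell by 0.88, and of 10 other collagens and laminins Col13a1, a transmembrane collagen, rose by 0.66. Fbn2 stood at 238, 228 and 238 CPM with LPA and 496, 373 and 433 CPM with vehicle.

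In the border cells Adamts9 fell as well, by 1.10, with 98.6, 103 and 136 CPM against 255, 234 and 243 CPM. There Adamts5, another protease of proteoglycans, rose by 1.07, Eln, which codes for elastin, by 1.15 and Smoc2, a matrix protein that binds calcium, by 0.54. These were 2 of 11 proteases and inhibitors, 1 of 18 fibrous matrix genes and 1 of 5 other collagens and laminins, while none of 17 assembly genes and 16 receptors was called. Adam12, a protease, was the 1 gene of the lists called in pericytes and in endothelial cells, and fell by 0.94 and 1.43. Its endothelial levels of 49.2, 98.7 and 53.6 CPM with LPA and 306, 123 and 127 CPM with vehicle did not overlap.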

How the data were processed

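Nuclei from 3 LPA and 3 vehicle brains were sorted for absence of NeuN and run on 10x 3′ v3 chemistry with a target of 10000 nuclei per library. The authors aligned and counted the reads with Cell Ranger 4.0.0 on an mm10 pre-mRNA reference, so that intronic reads enter the counts, and the deposited matrices hold raw UMI counts of 32285 genes per barcode, with 48852970 to 65688644 UMIs per library. Intronic reads give long genes more UMIs, and for that reason levels were compared only within a gene.

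A barcode was kept from 300 detected genes upward, where its mitochondrial share of UMIs did not pass 1% and its UMI total did not pass the upper quartile of the library by more than 1.5 interquartile ranges. Nuclei were clustered in scanpy 1.11.5 (Leiden resolution 1) without the members and the marker genes, named from 13 marker lists, and sub-clustered. The rules for naming clusters were set after the clusters were seen. Doublet calls (Scrublet) were kept. UMIs were summed per cell type and library, filtered with filterByExpr, scaled by TMM and tested in edgeR 4.0.16 (quasi-likelihood), with all genes adjusted together. Cell types with under 10 nuclei in any library were not tested, and the limits for a call were 0.05 for the adjusted p and 0.25 for the size of the log2 fold change. An SE is the fold change over the root of F. Differences between cell types were tested as an interaction with a term for each library. Shares were compared by an exact permutation test.

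The steps were tested on simulated counts in which 200 genes changed by 1 log2. Calls were made for 71% of them in fibroblasts, 60% in border cells, 86.5% in astrocytes, 86.5% in the pooled vascular cells, 78.5% over whole libraries and 40% in the difference of border cells and fibroblasts. That is 142, 120, 173, 173, 157 and 80 genes. Unchanged genes were called as well, 16, 5, 14, 7, 11 and 7 in the same order. Smaller changes were not simulated.

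The members and the gene lists were chosen with earlier results of these data known. Named with values were the members called in a vascular cell type, in the pooled vascular cells or over whole libraries, 16 basement membrane and fibre genes where they are highest, the members with the largest folds called elsewhere, up to 3 in each direction, and the genes called in the 5 further lists (125 genes), up to 3 in each direction. Other members were named after their values were seen. Alternatives were DESeq2 1.42.0, scaling by totals, no filter on low counts, each library left out, a replicate block, the Xist level of a library as covariate, no mitochondrial limit, no doublets and Leiden resolution 2. Added after seeing the data were the same mix of sub-clusters or of cell types, drawn with seed 1, and whole libraries without meningeal nuclei. Same-numbered libraries of the groups correlated at -0.166 to 0.244 in their deviations, so the numbers were not taken as pairs.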

Additional observations from a re-analysis of the deposited data

Results flagged for a closer look

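The effect of LPA on Lama4, a laminin alpha chain, differed between Slc47a1 border cells and meningeal fibroblasts by 0.765 on the log2 scale in a test of the difference itself (edgeR adjusted p = 0.0255). The call was lost in 4 of 7 alternatives, namely without LPA replicate 1, LPA replicate 3, vehicle replicate 1 or vehicle replicate 3, with adjusted p from 0.0522 to 0.24.

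Barcodes over the limit of 1% mitochondrial UMIs, left out of the comparisons except where the limit was lifted, numbered 307, 336 and 411 in LPA libraries and 527, 477 and 561 in vehicle libraries, and held more collagen I RNA in the LPA group. Col1a1 stood at 4910, 3725 and 2363 CPM there against 1448, 1803 and 1272 CPM, with means of 3666 and 1508 CPM. Col1a2 stood at 6427, 5076 and 3020 CPM against 1881, 2159 and 1729 CPM, with means of 4841 and 1923 CPM. Neither set of libraries overlapped, and these values lie in the opposite direction to those of the kept nuclei over whole libraries.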

How the results depend on the processing

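Over all alternatives, 1272 of 1504 log2 fold changes kept their direction and their side of the threshold, 140 lost a call, 22 gained one, 69 turned sign with no call in either fit (0.309 in size or less) and 1 reversed with a call. Numbers of members called moved as follows, with the genes called of all genes tested in the same fit in brackets. The causes were not tested. With no filter on low counts there were 5 in fibroblasts (230 of 21412) and 5 in border cells (149 of 19872). Ciliated cells then had 5 (653 of 21805), endothelial cells 3 (59 of 19501) and pericytes 1 (66 of 19438). Oligodendrocytes had 4 (288 of 23391), their precursors 1 (125 of 22428) and neurons 1 (53 of 25804). With no mitochondrial limit there were 5 in astrocytes (1204 of 14584) and 5 in ciliated cells (606 of 11385). Endothelial cells had 2 (40 of 9014) and oligodendrocyte precursors 1 (98 of 13097). DESeq2 called 1 in ciliated cells (186 of 10799), 1 in microglia (411 of 9144) and 1 in neurons (33 of 16926). Border cells had 2 with the Xist covariate (71 of 8715) and 3 without doublets (91 of 8963). Microglia had 1 without doublets (792 of 8989), and ciliated cells 1 at Leiden resolution 2 (163 of 10246). With the same mix of nuclei there were 0 in fibroblasts (27 of 8653), 5 in astrocytes (425 of 13383) and 3 in the pooled vascular cells (65 of 12634). Without meningeal nuclei 5 were called over whole libraries (931 of 20030), and Col4a5 reversed to 0.00681.

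The replicate block gave 5 in fibroblasts (Col4a1, Col4a2, Hspg2 and Lamc1 beside Col15a1), 1 in pericytes, 1 in endothelial cells, 17 in the pooled vascular cells and 15 over whole libraries, and the same number elsewhere. Of all genes it called 192 of 11041 in fibroblasts, 57 of 7912 in pericytes and 36 of 8248 in endothelial cells.

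With each library left out in turn the number ran from 1 to 4 in fibroblasts, 1 to 3 in border cells, 0 to 2 in endothelial cells, 0 to 1 in pericytes, 1 to 2 in ciliated cells, 0 to 2 in microglia, 0 to 1 in neurons, 0 to 1 in oligodendrocyte precursors, 0 to 2 in oligodendrocytes, 7 to 16 in the pooled vascular cells and 7 to 17 over whole libraries. For differences it ran from 0 to 2 (border cells and fibroblasts), 0 to 2 (pericytes and fibroblasts) and 0 to 1 (endothelial cells and pericytes), and the Lama4 difference from 0.637 to 0.952. The 4 in fibroblasts and 3 in border cells came without LPA replicate 2, with 102 of 11646 and 49 of 9402 genes called. The 2 in endothelial cells and 2 in oligodendrocytes came without vehicle replicate 1, with 48 of 8845 and 184 of 14051 genes called. Where no number of genes stands beside a count, the share over all genes is not given here.

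The difference in share of nuclei, in percentage points, ran from -0.191 to 0.00723 for pericytes, -0.265 to 0.392 for choroid plexus and -0.00969 to 0.158 for macrophages. Depth limits the cell types with few nuclei: 12 members in pericytes and 17 in endothelial cells were too low to test.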
